A study of Arabidopsis thaliana with 12 samples.

Results

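Plastid-encoded protein genes, the coding genes of the chloroplast genome, were followed in whole Arabidopsis thaliana seedlings grown in a water stress medium. The members were all rows of the deposited count tables whose ID begins with ArthCp. The reference annotation has 84 such genes. Of these, 82 were listed in at least 1 table, out of 20780 genes listed in all, and 78 were listed for both genotypes. Seeds were germinated for 5 days in liquid culture, and total seedling RNA was sequenced after a kit that selects polyadenylated RNA. The groups were atg5 (SALK_020601C, an insertion line for ATG5, a protein of the autophagy conjugation machinery) in water stress medium (WSM), atg5 in control medium (NM), wild type Columbia-0 in WSM and wild type in NM. Murashige medium at 0.5X with 0.5% sucrose was common to all groups, and alginic acid (0.5%) with glycerol (2.5%) was added for WSM. Each group has 3 of the 12 labelled samples. The count columns cover 10 libraries, which are named here by the number in their column: atg5 WSM 1, 2 and 3, atg5 NM 1 and 3, wild-type WSM 3 and 4, and wild-type NM 2, 3 and 4. Nothing in the labels ties replicates to separate cultures. The p-values therefore cover the spread among these libraries alone, and that spread may be technical.

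Chloroplast genes encode core subunits of the photosystems, the cytochrome b6f complex, ATP synthase, the NDH complex and Rubisco, together with ribosomal proteins and subunits of a plastid RNA polymerase. Most are transcribed as operons, by that bacterial-type polymerase with nuclear-encoded sigma factors and by a nuclear-encoded phage-type polymerase. Their mRNA levels depend strongly on RNA stability, and in chloroplasts a poly(A) tail marks RNA for decay, whereas nuclear mRNAs carry a stable tail. How far the counts of poly(A)-selected libraries follow the total plastid mRNA was not tested.

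Library totals ran from 8928632 to 24022759 counts, of which genes in the rRNA regions took 19% to 65.5%. The members held 8235 to 185810 counts per library. Raw counts are not scaled for depth, and atg5 WSM 1 had 3079551 counts outside rRNA regions, against 7367748 to 15707282 in wild type. ATG5 itself had 161 to 798 counts in libraries labelled atg5 and 354 to 806 in wild type, and a count over the whole gene does not show whether transcripts cross the insertion. PREP1, a nuclear gene for an organelle peptidase, divided the libraries labelled atg5: it had 0 to 4 counts in atg5 NM 1, atg5 NM 3 and atg5 WSM 2, against 349 in atg5 WSM 1 and 2412 in atg5 WSM 3, and 753 to 2668 counts in wild type. The libraries labelled atg5 thus differed among themselves, and values without atg5 WSM 1 and 3 are given beside the comparisons of the plastid members as a set. Summed green tissue markers (12 light-harvesting genes) ran from 17810 to 37340 CPM (counts scaled to a common library size) in atg5 WSM, 12120 to 13860 in atg5 NM, 19820 to 34060 in wild-type WSM and 26220 to 29980 in wild-type NM, so leaf-type transcripts were abundant in every library. Of 10 root markers, 2 fell in atg5 WSM relative to NM (2.64% of all genes fell) and 3 in wild type (2.62%). With the wild-type libraries fitted alone 9 fell, against 15.3% of all genes. Their summed level was 65.7 to 144 CPM in atg5 WSM, against 140 and 220.3 CPM in atg5 NM, and 66.8 and 85.6 CPM in wild-type WSM, against 187 to 216 CPM in wild-type NM. The 3 seed markers summed to 7.15 to 124 CPM in atg5 libraries, against 1441 to 2104 CPM in wild type. In bulk seedlings fewer cells of a type and less RNA per cell cannot be told apart, and the part of tissue make-up in the plastid values was not tested.

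A bacterial-type promoter has a pair of short boxes upstream of the start of transcription. The letters TTGACA and, after a spacer of 15 to 19 bases, TANNNT were searched on the coding strand within 250 bases upstream of every plastid start codon, with no overlap between the boxes. They were found for 3 of 85 coding rows (3.53%): psbA and both copies of ycf1. The stretch upstream of psbA is shown because psbA was the member with a fold change below 0 in wild type, and that of ycf1 for comparison, with the boxes in capitals (RefSeq, TAIR10.1, 5′ to 3′). The psbA stretch lies at Pltd:1530-1559 on the minus strand, 85 bases before the start codon. The ycf1 stretch lies at Pltd:109290-109317 on the plus strand.
psbA: TTGACAtggctatataagtcatgtTATACT
ycf1: TTGACAtaagagatgtcgtttcTAGTCT
These matches are descriptions of the sequence, and whether they act as promoters in these seedlings was not tested.

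Plastid mRNAs made up a small part of each library, and that part was larger in wild-type WSM than in wild-type NM. Members took 1.21% and 0.406% of the counts outside rRNA regions in wild-type WSM 3 and 4, against 0.206%, 0.227% and 0.122% in wild-type NM 2, 3 and 4. Both WSM libraries lay above all NM libraries, and the WSM libraries differed 2.97-fold from each other. In atg5 the share was 0.492%, 0.709% and 0.501% in WSM 1, 2 and 3, against 1.20% and 0.0665% in NM 1 and 3. The atg5 NM libraries lay above and below all 3 WSM libraries and differed 18.0-fold, the widest gap within any group. Wilson 95% intervals of these shares, which cover counting error only, reached at most 2.18% of the value to either side.

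**Figure D1:**
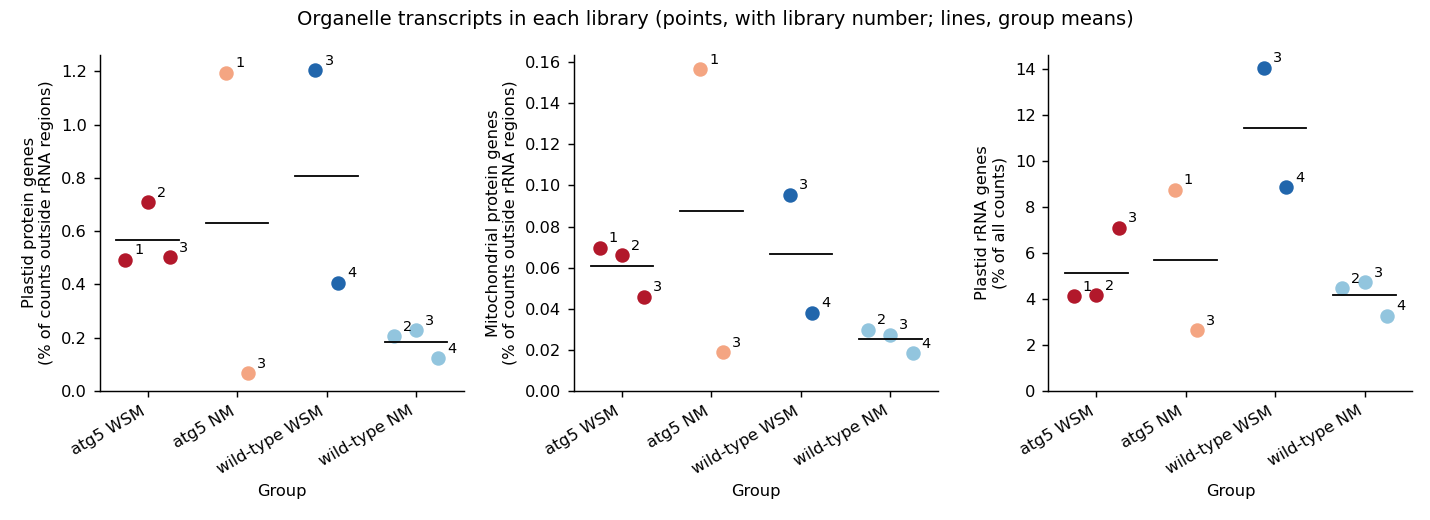
Share of counts in plastid protein genes (left) and mitochondrial protein genes (middle), both as % of counts outside rRNA regions, and in plastid rRNA genes as % of all counts (right), for each library (points with library number) and as group means (lines). The plastid share is 1.21% and 0.406% in wild-type WSM, above 0.122% to 0.227% in wild-type NM, while the atg5 NM libraries lie at 1.20% and 0.0665%.

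The other RNAs of the organelles differed alongside. Plastid rRNA took 14.1% and 8.86% of all counts in wild-type WSM, against 3.27% to 4.72% in wild-type NM, and 4.12% to 7.11% in atg5 WSM, against 8.76% and 2.64% in atg5 NM 1 and 3. Mitochondrial protein genes took 0.0955% and 0.0379% of counts outside rRNA regions in wild-type WSM, against 0.0184% to 0.0297% in wild-type NM. In atg5 NM 1 and 3 they took 0.157% and 0.0187%. In wild-type WSM and in atg5 NM, the library with more plastid protein RNA also had more of both other classes. The other groups did not show this. In atg5 WSM 2, highest in plastid protein RNA, plastid rRNA was 4.17%, against 7.11% in WSM 3. Its mitochondrial share was 0.0661%, against 0.0696% in WSM 1. In wild-type NM 3, highest in its group, the mitochondrial share was 0.0273%, against 0.0297% in NM 2. The part of any common source in these values was not tested. Among the 26 mitochondrial protein genes of the fit, the median log2 fold change in wild type was 1.05, against 2.29 for the 78 plastid genes.

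In wild type the plastid genes were higher in WSM almost without exception in direction, but with a wide spread. In a fit of all 10 libraries, 1 of 78 members was called higher by edgeR's quasi-likelihood test with Benjamini-Hochberg adjustment over 19714 genes (adjusted p under 0.05), against 3.27% of all genes. None was called lower (0 of 78), against 2.62% of all genes, with 0 at an unadjusted p under 0.05. DESeq2 called 11 of 78 higher, against 5.06% of all genes, and 0 lower, against 5.95%. The log2 fold change of WSM over NM was above 0 for 77 of 78 members, against 51.3% of all genes, with a median of 2.29, against 0.02 for all genes. In 64 of 78 members both WSM libraries lay above all 3 NM libraries, against 28.8% of all genes, and 51 had an unadjusted edgeR p under 0.05, against 11%. The members share the libraries and the genome they come from, so these counts are not independent observations.

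The number of calls rested on the atg5 libraries that share the estimate of the spread. The biological coefficient of variation was 62.8% for the median member, against 24.9% for the median of all genes, and the atg5 NM libraries differed most. With the 5 wild-type libraries fitted alone, edgeR called 69 of 78 members higher and 0 lower, against 14.1% of all genes higher and 15.3% lower. Leaving out each of these in turn gave between 46 calls (without WSM 3, against 12.7% of all genes) and 74 calls (without WSM 4, against 12%). In the fit of all libraries 49 members were called without atg5 NM 1 (4.34% of all genes) and 50 without atg5 NM 3 (4.38%). Without atg5 WSM 1 there were 6 calls (5.36% of all genes), and without atg5 WSM 1 and 3 also 6 (6.39%). The count was 1 without atg5 WSM 2, and 0 without atg5 WSM 3 or when any 1 of the 5 wild-type libraries was left out. In the authors' deposited table for wild type, 63 of 78 members had an adjusted p under 0.05 and a higher level in WSM, against 12.3% of the genes it lists.

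The member called in the fit of all libraries was rpl23 (ArthCp065, Pltd:85862-86143, minus strand, 1 exon), which encodes a protein of the large ribosomal subunit. It had 14.45 and 6.68 CPM in wild-type WSM 3 and 4, against 1.15, 1.81 and 1.15 CPM in wild-type NM 2, 3 and 4. The WSM libraries were clearly above all NM libraries. Its log2 fold change was 2.93 ± 0.76 (SE), with an edgeR adjusted p of 0.0459. A copy of rpl23 with the same coding sequence lies in the other arm of the inverted repeat (ArthCp084, Pltd:152506-152787, plus strand). The copies held 1640 and 1547 counts over all libraries, so the authors' counting gave each a similar share of reads that cannot be assigned to either. ArthCp084 had a log2 fold change of 2.57 ± 0.82 (edgeR adjusted p = 0.0914), and the call therefore cannot be tied to 1 copy. The coding sequences of rpl2, ycf2, ndhB and rps7 are also identical between the 2 arms. The 2 rows of rps12 (ArthCp001 and ArthCp047) share 114 coding bases and held 5206 and 5207 counts over all libraries.

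**Figure D2:**
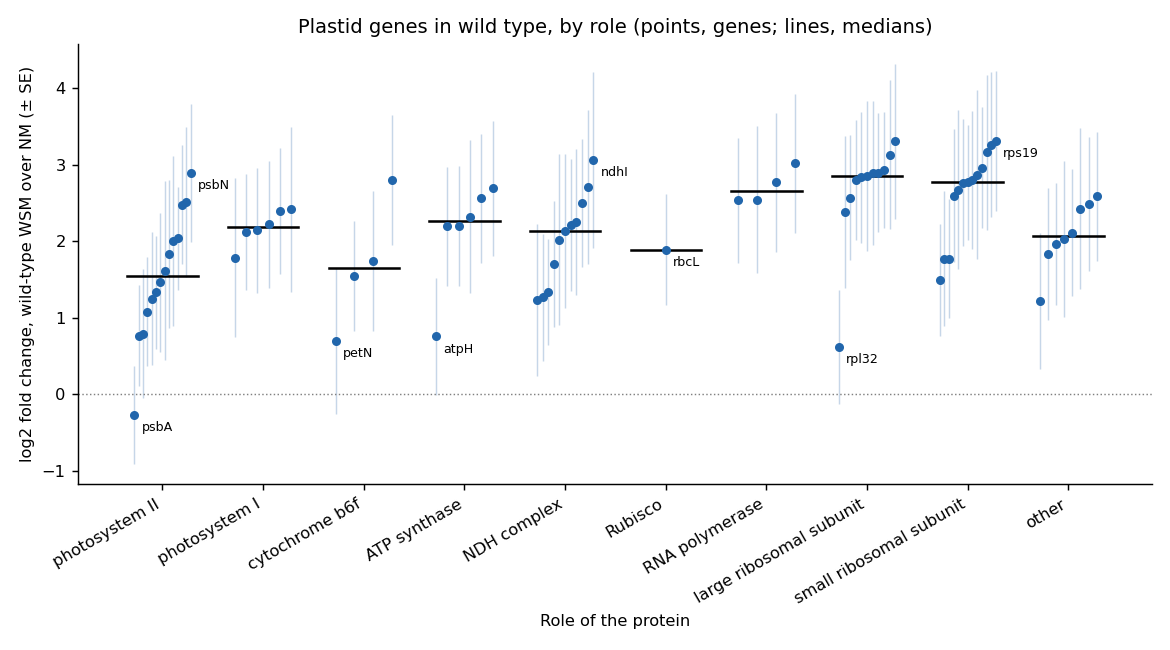
Log2 fold change of wild-type WSM over NM (vertical axis, ± SE from edgeR's fit of all libraries) for the 78 plastid genes, grouped by the role of the protein, with group medians as lines. Ribosomal protein and RNA polymerase genes have medians of 2.66 to 2.85, photosystem II genes of 1.54, and psbA lies below 0.

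By role, the genes of transcription and translation had the higher medians in wild type; differences between roles were not tested. The median log2 fold change was 2.85 for 11 large ribosomal subunit rows, 2.77 for 13 small ribosomal subunit rows and 2.66 for the 4 RNA polymerase genes. Roles were counted by row. Both rows of rpl2, rpl23, rps7, rps12, ndhB and ycf2 enter, although reads are shared within each pair, so those rows are not independent. The values ran from 2.53 to 3.02 among the polymerase genes, which encode the core of the bacterial-type enzyme, and the wild-type libraries alone gave a call for 4 of 4. Of the small subunit rows 13 of 13 were called in those libraries, and of the large subunit rows 10 of 11, with rpl32 left out. The highest values belonged to neighbours in 1 operon: rps19, a small subunit protein gene, had 39.0 and 16.9 CPM in wild-type WSM, against 1.72, 4.25 and 2.33 CPM in NM. The WSM libraries were several-fold above every NM library, with a log2 fold change of 3.31 ± 0.92 (edgeR adjusted p = 0.0581). The 11 measured genes from rpl23 to rpoA, which are transcribed together, had fold changes between 2.77 and 3.31 on the log2 scale, with a median of 2.93. That operon was singled out after its values were seen. It held 14.3% and 14.9% of plastid protein counts in wild-type WSM, against 4.04%, 8.50% and 10.3% in NM 2, 3 and 4. Of its members, rpl16 was the large subunit gene with the most counts per kilobase of coding length. It had 214 and 107 CPM in wild-type WSM, against 9.08, 30.8 and 24.6 CPM in NM.

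Photosynthesis genes had lower medians. Photosystem I genes, assembly factor genes ycf3 and ycf4 included, had a median of 2.18 (6 genes, range 1.79 to 2.42). The median was 2.26 for ATP synthase genes (6 genes), 2.13 for the NDH complex (11 rows) and 1.64 for cytochrome b6f genes (4 genes). The wild-type libraries alone gave calls for 6 of 6, 5 of 6, 9 of 11 and 3 of 4 of these. By the rule for named genes, ycf3, atpF for a stator subunit of ATP synthase, ndhA for an NDH membrane subunit and petD for subunit IV of cytochrome b6f stood for their groups, and in each the WSM libraries lay above all NM libraries. For ycf3 the log2 fold change was 2.40 ± 0.83 (edgeR adjusted p = 0.114), with 81.6 and 25.2 CPM in wild-type WSM, against 8.43, 13.4 and 8.46 CPM in NM. For atpF it was 2.56 ± 0.84 (edgeR adjusted p = 0.0991), with 114.5 and 45.1 CPM in wild-type WSM, against 9.32, 18.7 and 12.4 CPM in NM. Neither passed the threshold in the fit of all libraries, nor did ndhA (2.26 ± 0.95, edgeR adjusted p = 0.190) or petD (1.54 ± 0.72, edgeR adjusted p = 0.231). In that fit rpoA, for the alpha subunit of the polymerase, had 2.77 ± 0.91 (edgeR adjusted p = 0.0978), and clpP, for the proteolytic subunit of the Clp protease, had 1.96 ± 0.80 (edgeR adjusted p = 0.173). The 8 rows of other roles, clpP among them, had a median of 2.07, and 7 of 8 were called in the wild-type libraries alone. Photosystem II genes had a median of 1.54 over 14 genes and the widest range of any group, from psbA at -0.27 to psbN at 2.90. For psbF, a cytochrome b559 subunit gene, the log2 fold change was 1.47 ± 0.91 (edgeR adjusted p = 0.365). The psbN gene lies on the strand opposite the psbB operon between psbT and psbH. The sources used here do not say whether counting used strand, so its reads cannot be told apart from those of the operon.

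The member with the most counts per kilobase was rbcL (ArthCp030, Pltd:54958-56397, plus strand, 1 exon), which encodes the large subunit of the carbon-fixing enzyme Rubisco. Per kilobase of coding length it had 531, 700.5 and 748 CPM in atg5 WSM 1, 2 and 3, against 1059 and 95.3 in atg5 NM 1 and 3. In wild type it had 1597 and 608 CPM per kilobase in WSM 3 and 4, against 366, 348 and 178 in NM 2, 3 and 4. Both wild-type WSM libraries were above all wild-type NM libraries, while the atg5 NM libraries lay on either side of atg5 WSM. The log2 fold change in wild type was 1.89 ± 0.73 (edgeR adjusted p = 0.153; 0.00279 with the wild-type libraries alone). In the authors' deposited table the wild-type log2 fold change of rbcL was 1.88, with an adjusted p of 0.0108. The 4 nuclear genes of the Rubisco small subunit had wild-type log2 fold changes with a median of -0.10. With all libraries 0 of 4 were called, against 3.27% of all genes higher and 2.62% lower. With the wild-type libraries alone it was also 0 of 4, against 14.1% and 15.3%.

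The exception in direction was psbA (ArthCp002, Pltd:383-1444, minus strand, 1 exon), which encodes the D1 protein of the photosystem II reaction centre, a protein replaced often in the light. It had 176 and 59.0 CPM in wild-type WSM 3 and 4, against 225, 142 and 59.7 CPM in wild-type NM 2, 3 and 4. The groups overlapped, and the log2 fold change was -0.27 ± 0.64 (edgeR adjusted p = 0.841). The sign turned to 0.23 without wild-type NM 2 and to 0.31 without wild-type WSM 4, so no direction can be given. A further 8 members were not called in the wild-type libraries alone: rpl32, petN, atpH, psbC, psbI, ccsA, ndhC and ndhF. Their log2 fold changes in the fit of all libraries lay between 0.62 and 1.27.

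The make-up of the plastid protein gene counts differed between the media in wild type, with a smaller part in psbA and a larger part in ribosomal protein genes in WSM. Of the counts in the 78 members, psbA held 2.78% and 2.49% in wild-type WSM, against 18.2%, 10.6% and 8.25% in wild-type NM 2, 3 and 4. The share was lower in both WSM libraries than in each NM library. In atg5 it held 4.53%, 2.48% and 3.0% in WSM 1, 2 and 3, against 1.95% and 7.15% in NM 1 and 3, on either side of the WSM values. Wilson 95% intervals of these shares reached at most 8.07% of the value to either side. The ratio of psbA to rbcL counts was 0.0767 and 0.0673 in wild-type WSM, against 0.427, 0.283 and 0.233 in wild-type NM, so it too was lower in both WSM libraries. In atg5 it was 0.177, 0.0942 and 0.0911 in WSM 1, 2 and 3, against 0.0796 and 0.208 in NM 1 and 3. The share of rbcL ranged from 24.5% to 42.5% over all libraries. Ribosomal protein genes of the large subunit held 14.2% and 15.4% in wild-type WSM, against 4.61%, 8.92% and 11.1% in NM.

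**Figure D3:**
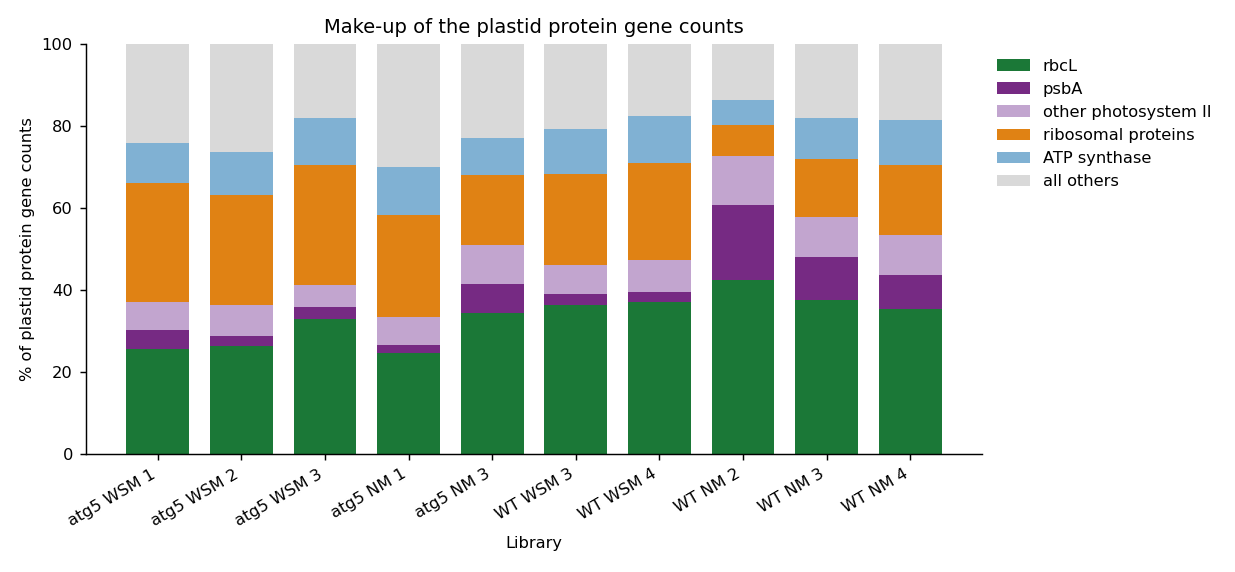
Make-up of the plastid protein gene counts in each library, as stacked percentages of the counts in the 78 members. The psbA part is 2.49% to 2.78% in wild-type WSM, against 8.25% to 18.2% in wild-type NM, and is 1.95% and 7.15% in atg5 NM 1 and 3.

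In atg5 no plastid gene was called between the media. Of 78 members 0 were called higher or lower by edgeR in the fit of all libraries, against 5.22% of all genes higher and 2.64% lower. At an unadjusted p under 0.05 the count was 1, against 13.6% of all genes higher, and DESeq2 called 1 (8.53%). The median log2 fold change was 0.03, with 41 members above 0, against 48.4% of all genes, and 37 below. The result followed which atg5 NM library was kept: without NM 1 the median was 3.47 and edgeR called 58 of 78 higher (4.05% of all genes), and without NM 3 the median was -0.90 with 0 calls. Without atg5 WSM 1 and 3 the median was 0.32, also with 0 calls. No direction for the response of atg5 can be given from these libraries. In the authors' deposited table for atg5, 1 of 82 members had an adjusted p under 0.05, against 4.03% of its genes higher.

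That member was rpl32 (ArthCp072, Pltd:113449-113607, plus strand, 1 exon), a large ribosomal subunit gene, named after its values were seen. It had 8.47, 2.50 and 4.01 CPM in atg5 WSM 1, 2 and 3, against 1.21 and 0.0971 CPM in atg5 NM 1 and 3, from 36 and 2 counts in the NM libraries. All WSM libraries lay above both NM libraries, which held for 1 of 78 members, against 16.2% of all genes. The edgeR log2 fold change was 2.79 with an adjusted p of 0.0557, and the authors' deposited table gives 2.93 with an adjusted p of 0.0277. Over the alternatives tried, the edgeR and DESeq2 adjusted p lay between 0.00174 and 0.225. In wild type rpl32 had 1.96 and 1.00 CPM in WSM, against 0.818, 0.977 and 1.03 CPM in NM, with overlapping groups.

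**Figure D4:**
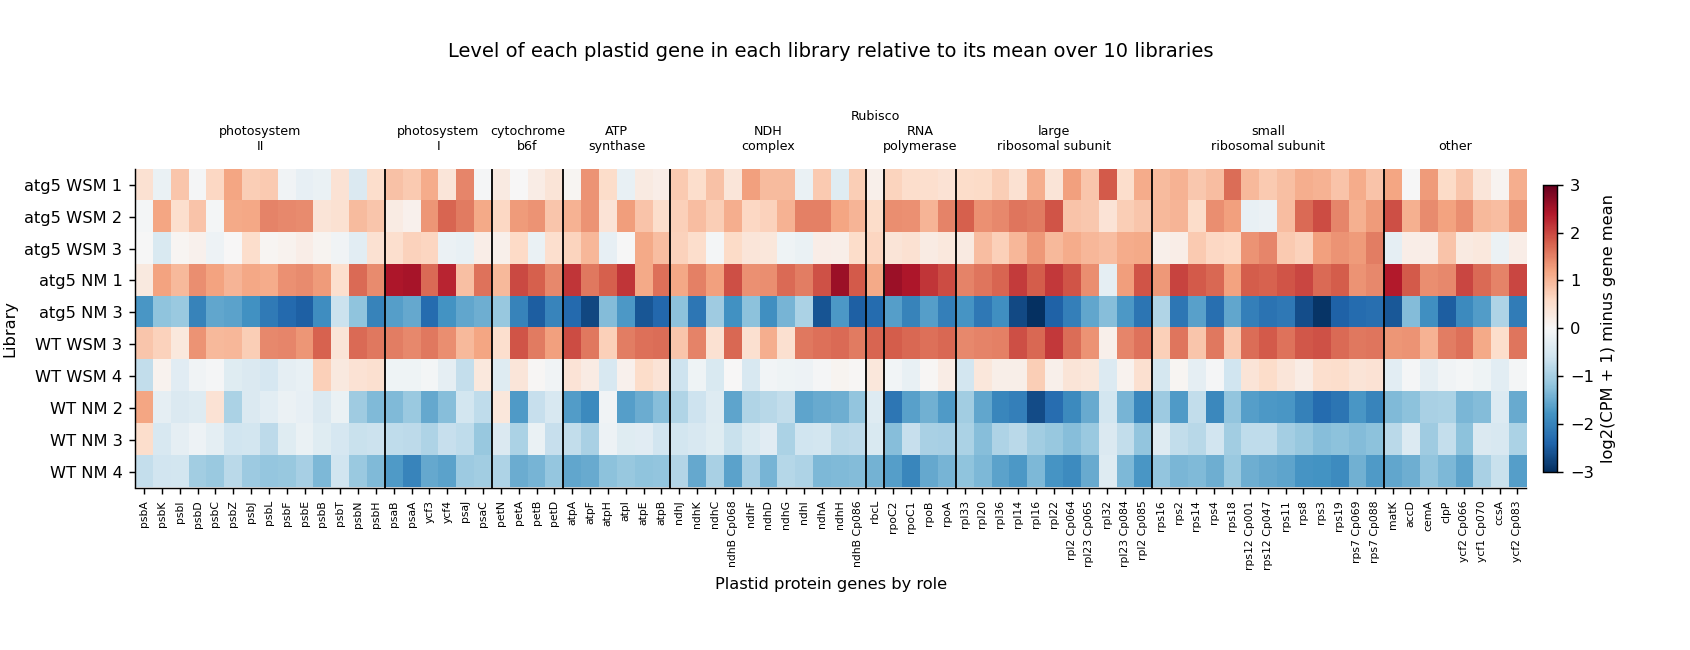
Level of each plastid gene in each library as log2(CPM + 1) minus the mean of the gene over all libraries (colour, from -3 to 3), with genes in columns by role and libraries in rows. The row of atg5 NM 1 is high and that of atg5 NM 3 low across nearly all genes, wild-type WSM 3 is higher than wild-type WSM 4, and psbA in wild-type NM 2 stands above the other genes of that library.

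The atg5 NM libraries differed from each other at every member. The log2 ratio of NM 1 over NM 3, on log2(CPM + 1), was above 0 for 78 of 78 members, with a median of 3.71 and a range of 1.0 to 4.95, whereas the median over all genes was 0.03. The median over 26 mitochondrial protein genes was 2.33. The members low in this ratio included psbA (2.05) and rpl32 (1.0), and rpl16 was the highest (4.95). The added 1 CPM pulls the ratio of low members toward 0. With 1.21 and 0.0971 CPM in NM 1 and 3, rpl32 was such a member, so its value does not show a small difference. Genes with a larger ratio between these 2 libraries tended also to have a larger ratio between the media in wild type, with a Spearman rho of 0.78 across 78 members and of 0.67 across the 63 members with a mean of at least 5 CPM. Across 13781 nuclear genes of at least 5 CPM the same rho was 0.45. These values describe genes within a few libraries that share depth and processing. Wild-type WSM 3 was likewise above WSM 4 at 78 of 78 members, with a median log2 ratio of 1.38.

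**Figure D5:**
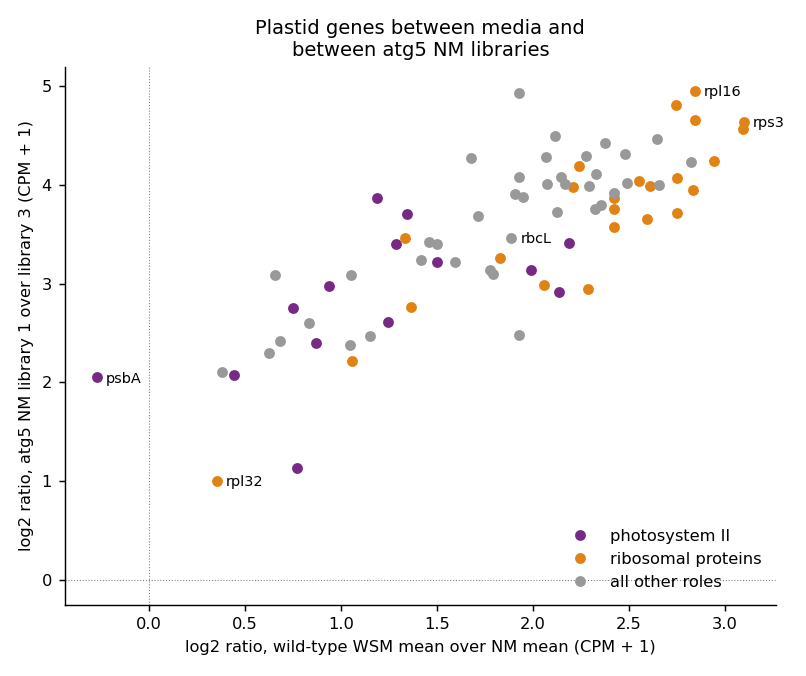
For each plastid gene (point), the log2 ratio of wild-type WSM over NM group means (horizontal axis) against the log2 ratio of atg5 NM library 1 over library 3 (vertical axis), both on CPM + 1, with photosystem II and ribosomal protein genes coloured. All points lie above 0 on the vertical axis (1.0 to 4.95), psbA alone lies below 0 on the horizontal axis, and ribosomal protein genes such as rpl16 reach the upper right.

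The difference of the WSM responses, atg5 minus wild type, was called for 0 of 78 members by edgeR and by DESeq2. Of all genes edgeR called 0.0% higher or lower, and DESeq2 called 1.3% higher and 0.771% lower. At an unadjusted edgeR p under 0.05, 26 members were lower, against 7.07% of all genes. The median difference was -2.28 on the log2 scale, 1.24 without atg5 NM 1 and -3.22 without atg5 NM 3, so its direction depended on which NM library was kept. Without atg5 WSM 1 and 3 it was -2.04. The lowest values were those of ndhH (-3.92), rpoC2 (-3.80) and psbN (-3.65), and rpl32 (2.17) and psbA (0.81) were the members above 0.

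Between the genotypes, 0 of 78 members were called in NM by edgeR, against 0.0913% of all genes higher and 0.0558% lower. At an unadjusted p under 0.05, 54 were higher (8.12% of all genes), and DESeq2 called 2 higher (1.48%). The median log2 fold change of atg5 over wild type in NM was 2.22, -1.34 without atg5 NM 1 and 3.13 without atg5 NM 3, and without NM 3 edgeR called 35 members higher (0.335% of all genes). In 0 of 78 members did the groups separate, against 18.9% of all genes that were higher in both atg5 NM libraries. In WSM edgeR and DESeq2 called 0 members. Of all genes, edgeR called 0.00507% higher and 0.0304% lower, and DESeq2 called 1.43% higher and 0.314% lower. At an unadjusted edgeR p under 0.05 there was 1 member higher (8.17% of all genes). The median there was -0.11, and 0.29 without atg5 WSM 1 and 3. Of 78 members 1 separated higher and 1 lower, against 13.6% and 13.8% of all genes. These comparisons share libraries with those between media.

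Of the 82 members listed, 4 were in the atg5 table only. The photosystem II gene psbM, the photosystem I gene psaI, the NDH gene ndhE and the small ribosomal subunit gene rps15 were these members. Their highest count in any atg5 library was 23, 46, 53 and 111. In atg5 WSM 1, 2 and 3, rps15 had 6, 104 and 29 counts, against 111 and 2 in NM 1 and 3, so the NM libraries again lay on either side. The genes petL and petG, which encode small subunits of cytochrome b6f, were in neither table. A row with another spelling, Arthcp087, holds the full-length ycf1 and lies outside the rule. Its wild-type log2 fold change was 2.54 ± 0.91 (edgeR adjusted p = 0.128), near that of the partial copy ArthCp070 (1.83 ± 0.86).

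Nuclear genes that act with plastid gene products were set beside them in 12 lists, with 1 exception named below. Of these genes, edgeR called 0 between the media in wild type in the fit of all libraries. The median log2 fold change was -0.20 for 12 photosystem I partners, -0.07 for 9 photosystem II partners and 0.53 for the 6 sigma factors, with 0 called in each list by edgeR in the fit of all libraries, against 3.27% of all genes higher. With the wild-type libraries alone, 14.1% of all genes were called higher. Called higher there were 4 of 6 sigma factor genes and 2 of the 2 phage-type polymerase genes used. So were 4 of 13 polymerase-associated protein genes and 6 of 11 genes of plastid RNA stability and decay. The phage-type polymerase genes used were RPOTP and RPOTM, of which RPOTM encodes the mitochondrial enzyme. The phage-type polymerase gene RPOTMP was also measured but not used, because its name did not match the annotation. In those libraries edgeR called 0 photosystem I partners and 0 photosystem II partners higher. It called 1 of 9 photosystem II partners lower, against 15.3% of all genes lower. Also lower there were 1 of 13 polymerase-associated protein genes and 1 of 3 regulators of nuclear photosynthesis genes. The same held for 2 of 5 partners of cytochrome b6f and ATP synthase and 1 of 5 partners of AccD. Higher were 1 of 7 partners of ClpP and 1 of 5 of AccD. The polymerase gene RPOTP had 44.4 and 32.6 CPM in wild-type WSM, against 14.2, 17.3 and 17.0 CPM in NM, with a log2 fold change of 1.25 (edgeR adjusted p = 0.0978 with all libraries).

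In atg5, 7 of 12 nuclear photosystem I partner genes rose in WSM relative to NM, against 5.22% of all genes higher. Among them PSAD2, for a stromal-side subunit, had 400.0, 408 and 727 CPM in atg5 WSM, against 175 and 88.1 CPM in NM, with a log2 fold change of 1.96 ± 0.40 (edgeR adjusted p = 0.0144). These groups did not overlap, and PSAD2 had 356, 353 and 415 CPM in wild-type NM. The 12 photosystem I partners had a median log2 fold change of -1.28 for atg5 over wild type in NM, with 0 called. The difference of the WSM responses was called for 0 of 12, against 0.0% of all genes. PSAE1 (1.44 ± 0.36, adjusted p = 0.0336) and PSAH2 (1.39 ± 0.25, adjusted p = 0.00706) rose by edgeR's test as well. Of 6 sigma factor genes SIG1 alone was called, with 49.7, 45.0 and 51.0 CPM in WSM, against 24.0 and 20.0 CPM in NM (1.14 ± 0.20, edgeR adjusted p = 0.00719). Also called higher were NDHM, 1 of 4 partners of the NDH complex, and ATPG, 1 of 5 partners of cytochrome b6f and ATP synthase. Of the partner genes of photosystem II 0 of 9 were called, of Rubisco 0 of 4 and of ClpP 0 of 7. Polymerase-associated protein genes were 0 of 13 called, and genes of plastid RNA stability and decay 0 of 11. PREP1 had 2, 0 and 4 counts in atg5 NM 1, NM 3 and WSM 2, against 349 and 2412 in WSM 1 and 3. The fit without WSM 1 and 3 leaves 1 atg5 WSM library, and its values for the genes called are not given here. The part of that split in these calls was not tested. In WSM 2, PSAE1 had 735 CPM, against 308 and 356 CPM in NM 1 and 3. PSAH2 had 407 CPM there, against 177 and 187 CPM. Green tissue markers were 0 of 12 called, with a median log2 fold change of 1.02. Within the list of partners of accD, the plastid gene for a carboxyltransferase subunit of acetyl-CoA carboxylase, ACC2 encodes a single-chain plastid form of that enzyme. It had 8.67, 23.1 and 4.01 CPM in atg5 WSM 1, 2 and 3, against 60.1 and 45.5 CPM in atg5 NM 1 and 3, and 1.23 to 2.14 CPM in wild-type NM. It fell in atg5 WSM relative to NM by 2.12 on the log2 scale (edgeR adjusted p = 0.0324) and was higher in atg5 than in wild type in NM (4.93 ± 0.59, edgeR adjusted p = 0.0163). Its level was lower in the atg5 WSM libraries with PREP1 counts than in the third. The accD gene itself was not called in any of the 5 comparisons.

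Gene features had weak relations to the wild-type fold change, the largest with the longest run of A. Across 72 distinct genes the Spearman rho with the log2 fold change was 0.13 for coding length, -0.06 for GC content and 0.29 for the longest run of A in the coding sequence, given as descriptions over genes of 1 genome. The order of abundance within a role depended on the length used. By coding length rpl16 was the highest large subunit gene (271 CPM per kilobase on average), and by gene span with its intron rpl14 was (133, against 75.6 for rpl16), since the sources used here do not say whether intron reads were counted. The rank of rbcL as the highest member held under both.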

How the data were processed

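The authors deposited 1 table per genotype with raw read counts per gene and library, from which all tests here were made. The deposited tables also hold the authors' log2 fold changes with standard errors, and p-values with adjusted p-values, per the file headers. Their 10 columns of normalized values were not used. The tools were Bowtie2, bedtools, DESeq2 and bcl2fastq, with build TAIR10, per the submitters' processing notes. Their versions and settings, and the use of strand and introns in counting, were not given in the sources used here. Columns gave each library its group but no title. The tables list 20002 genes (wild type) and 20492 (atg5), and 19714 are in both. Names were matched to TAIR10.1 (20762 in the RefSeq gene table and 18 in its annotation file). The 27 genes in rRNA regions were left out of the denominators of shares.

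Counts of 19714 genes were fitted in edgeR 4.0.16 (R 4.3.3, quasi-likelihood F test, TMM, filterByExpr, which removed 0 genes) with 4 groups, leaving 6 residual degrees of freedom. Adjusted p under 0.05 (Benjamini-Hochberg over all genes) was a call. CPM uses TMM-scaled totals, and SE comes from the F statistic. The fit was tested on simulated counts, and the share of false calls in that simulation was above the adjusted p threshold, so single calls near the threshold are weak. It recovered 93% (wild type) and 80% (atg5) of 4-fold changes, but 14% of 2-fold changes in each. Those changes were set in genes from the whole series. Members vary more (62.8% for the median member, against 24.9% for all genes), so 0 calls among them does not show that nothing changed. Alternatives were DESeq2 1.42.0, RLE factors, TMM from nuclear genes, no filter, only the groups compared, each table alone, an rRNA covariate, leaving out libraries, and the column number as a block. Where a setting left 1 library in a group, its spread was taken from the others.

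Named genes were psbA and rbcL, the member with the most counts per kilobase in each role, up to 4 called members each way with at least 5 CPM, members missing from a table, and up to 3 called genes of each nuclear list in each comparison. Others were chosen after their values were seen. The 15 nuclear lists hold 109 entries, of which 106 were used; 17 were joined by locus because the annotation gives another name. The members and lists were chosen with earlier results of these data known.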

Additional observations from a re-analysis of the deposited data

How the results depend on the processing

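The choice of libraries in the fit moved the counts most. The count of members called higher in wild-type WSM, 1 with all libraries, was 11 with DESeq2 (5.06% of all genes), 69 with only the groups compared and with each table fitted alone, 2 with the rRNA share as a covariate (3.79%) and 0 without the 2 libraries richest in rRNA (atg5 WSM 1 and wild-type NM 2). It was 50 without both atg5 NM libraries (4.36%), 6 without atg5 WSM 1 and 3, and 0 to 50 without each library in turn. With the wild-type libraries alone and each left out in turn it was 46 (WSM 3), 74 (WSM 4), 68 (NM 2), 64 (NM 3) and 62 (NM 4), against 12.7%, 12%, 9.73%, 8.66% and 10.8% of all genes. These last sets, from the removal of both atg5 NM libraries on, were chosen after seeing the data, except for leaving out each library in turn. In atg5 the count of 0 became 1 with DESeq2 and 1 with the rRNA covariate, and 0 to 58 without each library in turn. Between the genotypes in NM the count of 0 became 2 with DESeq2 and 0 to 35 without each library in turn. RLE factors, TMM from nuclear genes and no filter left every count of calls as it was. The difference of mean log2 plastid shares between groups was 1.97 in wild type (1.19 to 2.76 without each library in turn), 0.99 in atg5 (-1.10 to 3.07), 0.66 for atg5 against wild type in NM (-1.42 to 2.75), -0.32 in WSM (-1.11 to 0.46), and -0.98 for the difference of the responses (-3.07 to 1.1). Other denominators, and leaving out overlapping or duplicated members, moved these by less than the spread between libraries. The log2 ratio of the mean shares, added after seeing the data, was 2.13 (wild type), -0.15 (atg5, the sign turned), 1.77 (genotypes in NM), -0.51 (WSM) and -2.28 (difference), so no direction of the share in atg5 can be given.

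The column numbers gave no clear pairing of the samples: deviations of same-numbered libraries correlated between -0.29 and 0.18. Deviations from means of 2 or 3 libraries cannot exclude a pairing. With the replicate block by column number the count of members called was 0 in wild type and 1 in atg5, and 0 in the other comparisons. The median log2 value of the members became 2.45 in wild type, 1.16 in atg5, -1.13 for the difference of the responses, 0.25 between the genotypes in NM and -1.07 in WSM. Under that block psbA in wild type was 0.10 on the log2 scale, and rbcL for atg5 against wild type in NM was -0.48. No paired analysis by title was possible, because titles could not be matched to columns.

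Directions reversed in these cases, and the cause was not tested. In wild type psbA (-0.27) was 0.23 without the 2 libraries richest in rRNA, -1.27 to 0.31 without each library in turn, and 0.22 and 0.30 in the wild-type libraries alone without NM 2 and without WSM 4. In atg5 WSM against NM, leaving out each library gave -0.15 to 1.94 for psbA, -0.68 to 2.79 for rbcL and -0.54 to 3.26 for rpl23 (ArthCp065). For the difference of the responses it gave -2.57 to 0.90 for rbcL and -3.48 to 0.33 for rpl23. For atg5 against wild type in NM it gave -1.64 to 1.83 for rbcL and -0.36 to 3.44 for rpl23. In WSM it gave -0.69 to 0.89 for psbA, -1.27 to 0.12 for rbcL and -0.49 to 0.62 for rpl23, and the rRNA covariate gave 0.18 for psbA and 0.0044 for rpl23. Low members limit precision: the median member had 38 counts in atg5 NM 3 and 45 in wild-type NM 2.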
